A study of Mus musculus with 54 samples.

Results

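The comparison described here sets cerebellum lacking both Rnaseh2b and p53 in neural cells against control cerebellum in mice at P5. Its members were chosen by their labels, as the 4 libraries of RnaseH2B,p53 Nes-cre genotype and the 3 libraries of Control genotype at that age, which makes 7 of the 54 samples in the series. RNA came from whole cerebellum, was extracted with TRIzol and was made into libraries with a stranded total RNA kit. Nes-cre drives Cre recombinase from Nestin sequences, which are active in neural progenitors, so microglia, vessels and meninges of the same tissue are expected to keep both genes. The labels give no sex, do not say whether the controls carry Cre or the unrecombined alleles, and do not say whether replicates are separate animals. The p-values therefore measure the spread between these libraries. Besides the control, the groups used beside the double mutant are 3 P5 libraries of p53 Nes-cre and 3 of RnaseH2B Nes-cre genotype, and the fit also holds 3 Atm and 4 Rnaseh2b/Atm libraries, which makes 20 libraries. The controls are shared by every comparison with control. The groups are called Rnaseh2b/p53, p53, Rnaseh2b and control below.

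RNase H2 is an enzyme of 3 kinds of subunit that cuts RNA paired with DNA and starts the removal of single ribonucleotides that polymerases leave in the genome. Rnaseh2b encodes the subunit that links the complex to the replication clamp, and in humans mutations in its genes are a cause of Aicardi-Goutieres syndrome, an inherited inflammation of the brain with raised interferon signalling. Trp53 encodes p53, the transcription factor that answers DNA damage with cell cycle arrest or cell death. At P5 the outer layer of the mouse cerebellum is filled with dividing granule neuron progenitors.

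Reads in genes ran from 48.2 to 95.1 M (megareads) per library with a median of 80.4 M, except in Rnaseh2b/p53 3, which held 711 M. The Rnaseh2b/p53 libraries were more alike than the controls, with a median SD per gene of 0.0974 log2 CPM (reads of a gene scaled to the library's total, on a log2 scale), against 0.205 log2 CPM in control. On the first principal component, which took 35% of the variance, control 2 stood at 44.8 and control 1 at -36.9, while the Rnaseh2b/p53 libraries lay between -30.6 and -2.02. The female transcript Xist stood at -1.50, 8.29, 0.18 and -2.18 log2 CPM in the 4 Rnaseh2b/p53 libraries, against 8.23, 7.73 and 8.46 log2 CPM in the 3 controls. It was thus high in 1 of 4 Rnaseh2b/p53 and in 3 of 3 control libraries, and Xist entered an alternative fit as a covariate.

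Both engineered genes were low in the double mutant. Rnaseh2b stood at 2.17, 2.30, 2.21 and 2.11 log2 CPM in Rnaseh2b/p53 libraries, against 4.61, 3.76 and 4.45 log2 CPM in control libraries. It fell by 2.08 ± 0.21 log2 (SE, limma adjusted p = 0.000402, n = 4 and 3), the smallest adjusted p of all tested genes. Trp53 stood at 2.23, 2.16, 1.76 and 1.94 log2 CPM in Rnaseh2b/p53 libraries, against 4.19, 3.02 and 3.92 log2 CPM in control libraries, and it fell by 1.68 ± 0.29 log2 (limma adjusted p = 0.0156). The groups did not overlap for either gene. The call of Trp53 was lost without control 3, without Rnaseh2b/p53 3 or without Rnaseh2b/p53 4, with an adjusted p of up to 0.0835 by limma, and its fall was between 1.45 and 2.03 log2 with each library of both groups left out in turn. Each gene was also low in the single mutant labelled with it and near control in the other. Rnaseh2b stood at 4.44, 4.26 and 4.54 log2 CPM in p53 libraries, and Trp53 at 3.98, 3.67 and 4.15 log2 CPM in Rnaseh2b libraries. Residual reads from tissue outside the Nes-cre lineage and from transcript parts outside the deletion cannot be told apart in these counts.

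The other genes of ribonucleotide removal did not pass the test. In a list of 12 genes of RNase H2 and ribonucleotide excision, 1 was called, which was Rnaseh2b itself, and the list median was 0.15 log2. Of 6 tested genes of Aicardi-Goutieres syndrome, Rnaseh2b was again the only call, and the median was 0.07 log2. Over all tested genes 0.428% were called. The catalytic subunit gene Rnaseh2a stood at 4.38, 4.48, 4.48 and 4.13 log2 CPM in Rnaseh2b/p53 libraries, against 4.17, 4.08 and 4.12 log2 CPM in control libraries (0.24 ± 0.10 log2, limma adjusted p = 0.482). The third subunit gene, Rnaseh2c, differed by -0.18 ± 0.18 log2 (limma adjusted p = 0.863), with overlapping groups.

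Across the transcriptome, 31 genes rose and 35 fell of 15421 tested, at a limma adjusted p below 0.05. These are 0.428% of the tested genes in either direction, 0.201% higher and 0.227% lower. At an unadjusted p below 0.05 there were 1316 genes, and the median over all tested genes was -0.00124 log2. All Rnaseh2b/p53 libraries lay above all controls for 3.89% of the tested genes and below all controls for 3.77%, and every one of the 66 called genes was among these. Of the called genes, 16 rose by at least 1 log2, 16 fell by at least 1 log2, and 15 had a mean under 1 log2 CPM over the P5 libraries. By RefSeq gene type, 20 of the rises and 28 of the falls were protein coding, and most others were pseudogenes. With each of the 7 libraries left out in turn, 15 of the 66 genes stayed called every time, 7 were called in no such fit, and the number called ran from 20 to 190. The 15 were Rec8, Trim34a, Trim30d, Zfp125, Gm5514, Gm10478, Npm3-ps1 and Rpl3-ps1 among the rises, and Rnaseh2b, Dera, Dctd, Gm6768, Gm4983, Gm9282 and Rpl15-ps2 among the falls. With Xist as a covariate 27 genes were called, of which 24 were among the 66.

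**Figure D1:**
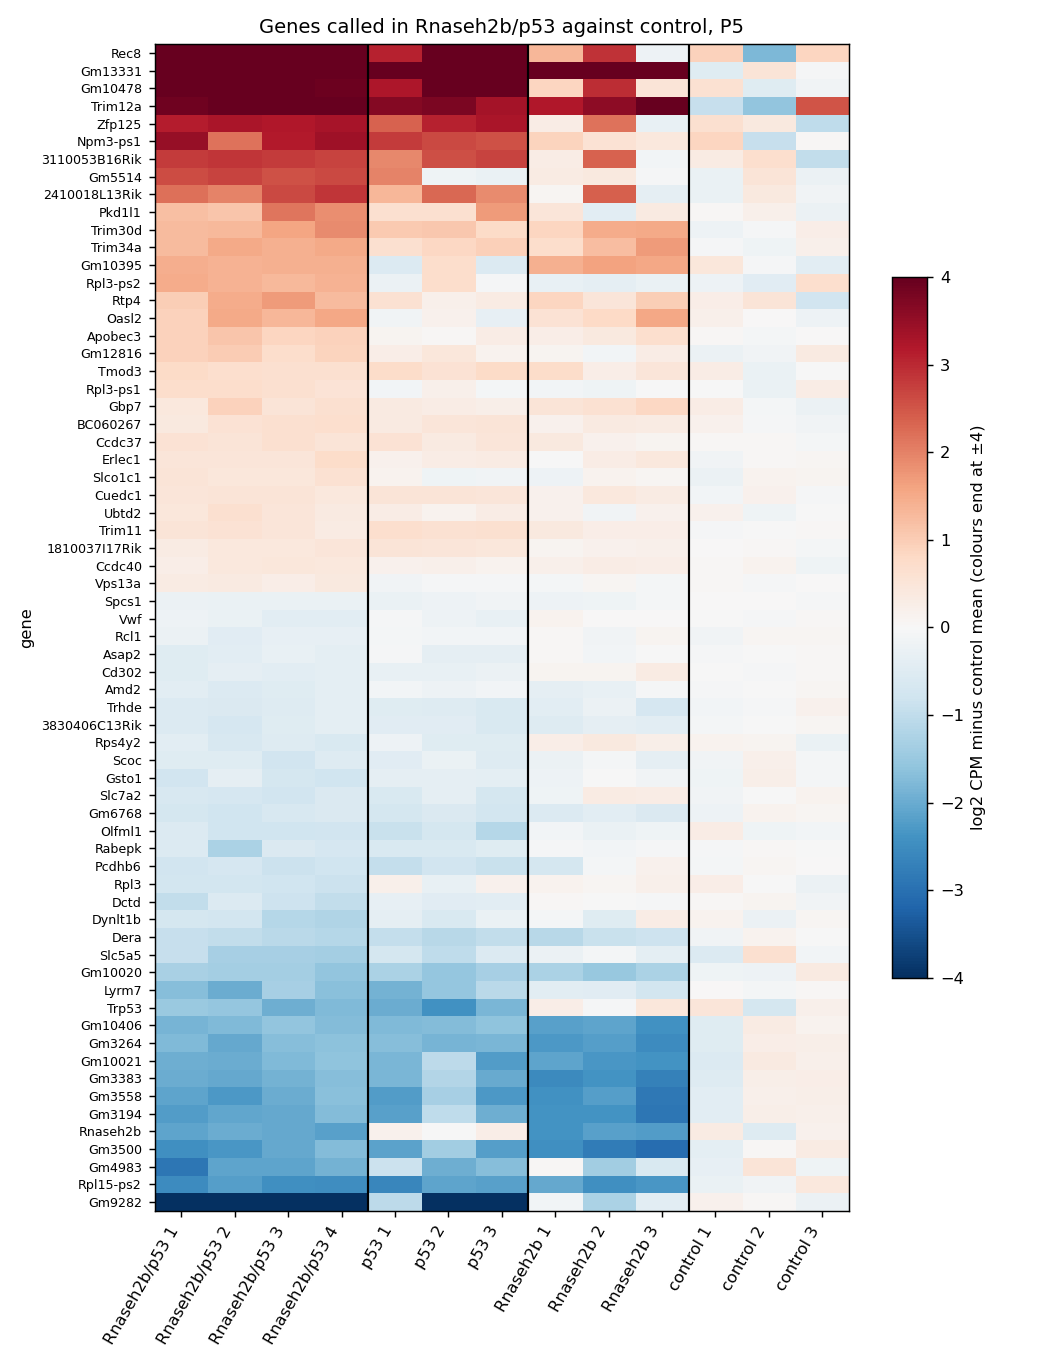
Level of each of the 66 called genes (rows, ordered by log2 fold change) in each Rnaseh2b/p53, p53, Rnaseh2b and control library (columns), as log2 CPM minus the control mean of that gene, with colours ending at 4 log2 on either side. All 4 Rnaseh2b/p53 libraries lie on the same side of the controls in each of the 31 rises and 35 falls. Some rows, such as Npm3-ps1 and Pkd1l1, are uneven among these 4 libraries. Many rows have the same colour in p53 or Rnaseh2b libraries, and the rows of Rpl3, Rpl3-ps1, Slco1c1, Vps13a and Rcl1 differ in Rnaseh2b/p53 libraries only.

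Interferon-stimulated genes were the list with the most called members. Type I interferon is released by cells that sense foreign or misplaced nucleic acid, and it switches on genes that block viruses. Of 49 listed genes 38 were tested, 3 rose, none fell and 35 were not called, against 0.201% of all tested genes called higher. The list median was 0.54 log2 against -0.00124 over all tested genes, 35 of the 38 had a positive log2 fold change, and 14 had all Rnaseh2b/p53 libraries above all controls. Over all tested genes these shares were 49.7% and 3.89%. Isg15, the Oas genes other than Oasl2, Mx1 and Cxcl10 were among the 11 listed genes that were not tested.

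The 3 rises were Oasl2, Rtp4 and Gbp7. Oasl2, of the family of oligoadenylate synthetase-like proteins that sense RNA, stood at 0.38, 0.97, 0.78 and 1.0 log2 CPM in Rnaseh2b/p53 libraries, against -0.35, -0.54 and -0.76 log2 CPM in control libraries (1.33 ± 0.24 log2, limma adjusted p = 0.0212). Rtp4, an interferon-induced transporter protein, stood at 0.56, 1.06, 1.28 and 0.84 log2 CPM in Rnaseh2b/p53 libraries, against -0.18, 0.08 and -1.21 log2 CPM in control libraries (1.37 ± 0.26 log2, limma adjusted p = 0.0257). Gbp7, a guanylate-binding GTPase of cell defence, stood at 3.15, 3.64, 3.24 and 3.36 log2 CPM in Rnaseh2b/p53 libraries, against 3.01, 2.65 and 2.50 log2 CPM in control libraries (0.62 ± 0.13 log2, limma adjusted p = 0.0442). Their groups did not overlap, so leaving out single libraries could not change the directions, but all 3 lost their calls in some of these fits. Oasl2 and Gbp7 were called only without control 1 or without Rnaseh2b/p53 1, with adjusted p of up to 0.105 and 0.206 in the other fits by limma. Rtp4 lost its call without control 3, Rnaseh2b/p53 2, Rnaseh2b/p53 3 or Rnaseh2b/p53 4, with an adjusted p of up to 0.107 by limma. Per length, in fragments per kilobase (FPKM), the mean level of Gbp7 was 2.45 FPKM in Rnaseh2b/p53 and 1.58 FPKM in control, above Rtp4 at 1.64 FPKM in Rnaseh2b/p53 and 0.652 FPKM in control and Oasl2 at 0.596 FPKM in Rnaseh2b/p53 and 0.231 FPKM in control.

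Apobec3 and 3 Trim genes, of families with known roles in antiviral defence, were called without being on that list. Apobec3, a cytidine deaminase that restricts retroviruses, stood at 1.63, 1.81, 1.57 and 1.65 log2 CPM in Rnaseh2b/p53 libraries, against 0.77, 0.62 and 0.74 log2 CPM in control libraries. It rose by 0.95 ± 0.16 log2 (limma adjusted p = 0.0125), and its adjusted p was up to 0.0677 by limma without control 2 or without Rnaseh2b/p53 2. The 3 Trim genes lie on chromosome 7 and encode ubiquitin ligases related to the retrovirus restriction factor Trim5. They are named here after their values were seen. Of 1098 tested genes on that chromosome 4 were called, or 0.364%. Trim34a stood at 0.91, 1.16, 1.08 and 1.16 log2 CPM in Rnaseh2b/p53 libraries, against -0.40, -0.51 and -0.15 log2 CPM in control libraries (1.43 ± 0.19 log2, limma adjusted p = 0.00281). Trim30d stood at 0.47, 0.49, 0.75 and 1.07 log2 CPM in Rnaseh2b/p53 libraries, against -1.0, -0.88 and -0.56 log2 CPM in control libraries (1.51 ± 0.23 log2, limma adjusted p = 0.00592). Trim12a stood at 1.03, 1.30, 1.29 and 1.26 log2 CPM in Rnaseh2b/p53 libraries, against -3.79, -4.44 and -0.36 log2 CPM in control libraries, so the controls themselves differed widely. In p53 libraries, where the interferon list had a median of -0.09 log2 against control, these Trim genes also lay above every control. Trim12a stood at 0.81, 0.89 and 0.47 log2 CPM there, Trim30d at 0.22, 0.27 and -0.06 log2 CPM and Trim34a at 0.28, 0.48 and 0.60 log2 CPM, with differences from control of 3.58, 0.96 and 0.81 log2 that were not called (limma adjusted p = 0.114, 0.177 and 0.177). In Rnaseh2b libraries Trim12a, Trim30d and Trim34a were called higher than control, by 3.62, 1.29 and 1.21 log2 (limma adjusted p = 0.0496, 0.0212 and 0.0149). The double mutant differed from Rnaseh2b by 0.46, 0.22 and 0.22 log2, none called (limma adjusted p = 0.821, 0.673 and 0.6). Against control, Trim34a and Trim30d stayed called with each library left out in turn. Trim12a lost its call without control 2, Rnaseh2b/p53 2, Rnaseh2b/p53 3 or Rnaseh2b/p53 4. These Trim genes are close relatives in a cluster, and how the authors' counting split reads between them was not tested.

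The sequence in front of 3 of these genes is printed because it holds the letters of an interferon-stimulated response element, the pattern that interferon-activated factors bind. The motif searched was GAAANNGAAA on both strands, in windows from 250 bases before to 50 bases after each RefSeq gene start on GRCm38.p6, a build later than the mm9 build of the files. It was found for 3.99% of the 27025 genes with a window. Each stretch lies wholly before the start site and is given on the gene's strand, with the matching letters in capitals. The motif lies on the opposite strand in all 3, so the capitals show its reverse complement.
Gbp7, chr3:142530248-142530327, plus strand, first matching base 53 before the start: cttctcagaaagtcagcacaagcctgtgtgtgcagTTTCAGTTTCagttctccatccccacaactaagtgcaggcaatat
Apobec3, chr15:79892233-79892312, plus strand, first matching base 140 before the start: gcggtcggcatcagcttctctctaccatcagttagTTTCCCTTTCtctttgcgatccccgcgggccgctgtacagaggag
Trim30d, chr7:104507850-104507929, minus strand, first matching base 41 before the start: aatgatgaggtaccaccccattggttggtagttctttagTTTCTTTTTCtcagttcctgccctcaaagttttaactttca

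Trim34a and Trim12a each hold a match 11 bases after the start, Oasl2 holds none in its window, and Rtp4 was not matched to a window. A match is a description of letters and shows no binding. Windows were matched for only 17 of the 31 rises and 20 of the 35 falls, under 80% of either set, so a comparison of the motif share between called genes and other genes is void.

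Members of the list that did not pass the test lay mostly above control. Xaf1, an interferon-induced partner of an inhibitor of apoptosis, stood at 1.59, 2.40, 1.99 and 2.10 log2 CPM in Rnaseh2b/p53 libraries, against 0.93, -0.70 and -0.24 log2 CPM in control libraries (2.03 ± 0.47 log2, limma adjusted p = 0.0646). Ifit1, which binds foreign RNA, stood at -0.44, 0.67, 1.41 and 0.95 log2 CPM in Rnaseh2b/p53 libraries, against -0.59, -2.41 and -1.52 log2 CPM in control libraries (2.15 ± 0.53 log2, limma adjusted p = 0.0906). Irgm1, an immunity-related GTPase, differed by 0.76 ± 0.20 log2 (limma adjusted p = 0.136). None of Xaf1, Ifit1 and Irgm1 had overlapping groups. Among the most expressed members, Ifit2, Cmpk2 and Stat2 had overlapping groups and smaller values, with Ifit2 at 0.10 log2, Cmpk2 at 0.15 log2 and Stat2 at -0.09 log2.

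The list was uneven among the double mutant libraries. With each member centred on its control mean and the members then averaged, the list stood at 0.36, 0.94, 0.74 and 0.58 log2 in Rnaseh2b/p53 libraries, against 0.38, -0.18 and -0.19 log2 in control libraries. Control 1 thus lay above Rnaseh2b/p53 1, and the groups overlapped. Rnaseh2b/p53 2, the double mutant library with high Xist, had the highest level of the 4 for 24 of the 38 members, and Rnaseh2b/p53 1 had the lowest for 25. Summed over the 48 listed genes with deposited values, tested or not, the level was 198 to 259 CPM in Rnaseh2b/p53 and 167 to 172 CPM in p53. It was 195 to 232 CPM in Rnaseh2b and 164 to 200 CPM in control. The list median ran from 0.26 log2, with log2 of FPKM plus 1, to 0.71 log2, without control 1. The number called was 12 without control 1 and 1 without control 2. It was 0 with no libraries but these 7 in the fit, and 0 without control 3, Rnaseh2b/p53 2, Rnaseh2b/p53 3 or Rnaseh2b/p53 4. With Xist as a covariate the median was 0.64 log2 and 1 member was called.

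**Figure D2:**
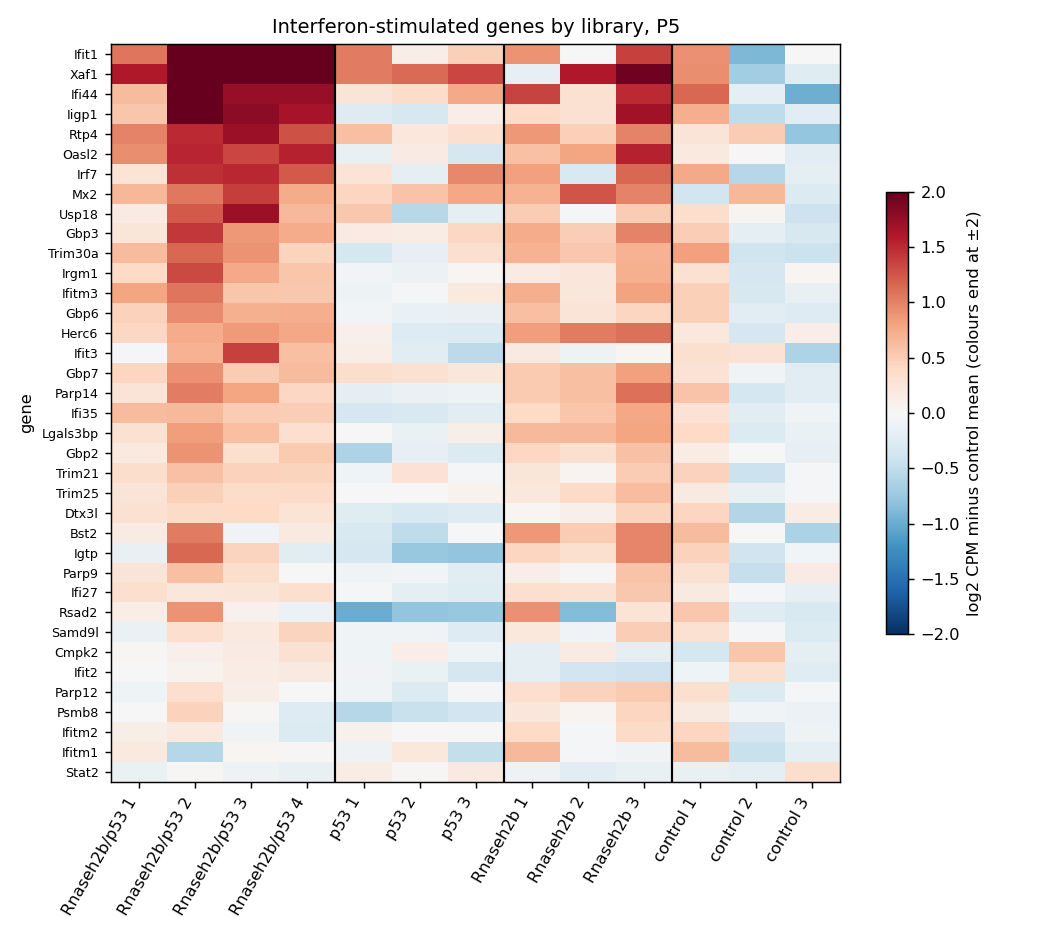
Level of 37 of the 38 tested interferon-stimulated genes (rows, ordered by log2 fold change of Rnaseh2b/p53 over control) in each Rnaseh2b/p53, p53, Rnaseh2b and control library (columns), as log2 CPM minus the control mean, with colours ending at 2 log2 on either side. Rnaseh2b/p53 2 has the strongest colours, Rnaseh2b/p53 1 the weakest of its group, and control 1 has a higher centred mean (0.38) than the other controls (-0.18 and -0.19).

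Genes upstream of and beside that response were not called. Of 13 tested sensors and adaptors of nucleic acid none was called, with a median of 0.19 log2. Over all tested genes 0.428% were called, so the absence of calls in this list and the next ones says little. The RNA sensor gene Ddx58, which encodes RIG-I, stood at 2.34, 2.89, 2.70 and 2.61 log2 CPM in Rnaseh2b/p53 libraries, against 2.26, 1.98 and 2.01 log2 CPM in control libraries (0.55 ± 0.14 log2, limma adjusted p = 0.0917). The DNA sensor gene Cgas, under an older name in the deposited table, differed by 0.41 ± 0.17 log2 (limma adjusted p = 0.461) and the RNA sensor gene Ifih1, which encodes MDA5, by 0.49 ± 0.14 log2 (limma adjusted p = 0.182), both with every Rnaseh2b/p53 library above every control. None of 13 interferon signalling genes was called, with a median of -0.01 log2. Irf9, the DNA-binding partner of Stat2, was nearest to the threshold at 0.30 ± 0.07 log2 (limma adjusted p = 0.0761). None of 11 tested genes of MHC class I presentation was called, with a median of 0.22 log2, and H2-K1 stood at 3.03, 4.17, 3.09 and 3.03 log2 CPM in Rnaseh2b/p53 libraries, against 2.93, 2.58 and 2.47 log2 CPM in control libraries. One library, Rnaseh2b/p53 2, was far above the rest for this gene.

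Targets of p53 lay near control in the double mutant. No member of 3 lists of p53 targets was called, of 14 genes of apoptosis, 16 of arrest and feedback and 16 of metabolism and repair. The medians were -0.10, 0.09 and -0.07 log2. Over all tested genes 0.428% were called, so the absence of calls in lists of this size says little. Cdkn1a, the p21 inhibitor of the cell cycle, stood at 3.89, 3.94, 3.97 and 4.05 log2 CPM in Rnaseh2b/p53 libraries, against 3.78, 4.38 and 3.78 log2 CPM in control libraries (-0.02 ± 0.16 log2, limma adjusted p = 0.979). Ccng1, a cyclin among the most strongly p53-dependent genes, stood at 5.90, 5.87, 5.88 and 6.07 log2 CPM in Rnaseh2b/p53 libraries, against 6.07, 6.06 and 5.86 log2 CPM in control libraries (-0.07 ± 0.09 log2, limma adjusted p = 0.886). Mdm2, the ubiquitin ligase that limits p53, differed by 0.08 ± 0.08 log2 (limma adjusted p = 0.86). The groups overlapped for all 3.

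Some targets had all double mutant libraries on the same side of control without passing the test. Of the apoptosis targets 1 lay wholly above the controls and 1 wholly below. Among targets of arrest and feedback 1 lay below, and among those of metabolism and repair 2 did. The shares over all tested genes were 3.89% above and 3.77% below, so such counts in short lists are a description. Ephx1, an epoxide hydrolase, stood at 2.44, 2.40, 2.12 and 2.55 log2 CPM in Rnaseh2b/p53 libraries, against 2.75, 2.78 and 2.64 log2 CPM in control libraries (-0.34 ± 0.12 log2, limma adjusted p = 0.321). Rrm2b, the p53-induced subunit of ribonucleotide reductase, differed by -0.29 ± 0.07 log2 (limma adjusted p = 0.0903). Pmaip1, which encodes the apoptosis trigger NOXA, stood at 0.82, 0.58, 0.73 and 0.45 log2 CPM in Rnaseh2b/p53 libraries, against 0.37, -0.51 and 0.12 log2 CPM in control libraries (0.65 ± 0.42 log2, limma adjusted p = 0.767). In the Rnaseh2b single mutant Pmaip1 stood at 1.88, 2.19 and 2.44 log2 CPM, above every Rnaseh2b/p53 library.

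Set against that single mutant, the double mutant was lower for 9 p53 targets. Rnaseh2b/p53 against Rnaseh2b asks what loss of p53 changed once Rnaseh2b was lost, and 172 genes rose and 294 fell (limma, n = 4 and 3), which are 3.02% of tested genes in either direction, 1.12% higher and 1.91% lower. None of the p53 targets rose. Each of the 3 lists had 3 falls. Ccng1 fell by 0.59 ± 0.09 log2 (limma adjusted p = 0.00567), Aen, a p53-induced nuclease, by 0.69 ± 0.09 log2 (limma adjusted p = 0.00268) and Ephx1 by 0.90 ± 0.12 log2 (limma adjusted p = 0.00236). Sesn2, Bax, Zmat3, Phlda3, Dcxr and Trp53cor1 were the other falls. For Aen the Rnaseh2b/p53 libraries stood at 4.57, 4.35, 4.53 and 4.36 log2 CPM, the Rnaseh2b libraries at 5.21, 4.99 and 5.24 log2 CPM and the controls at 4.81, 4.77 and 4.56 log2 CPM. All 9 had negative values in every alternative that tested them, which was largely set in advance because this same contrast picked them. Not all their calls held. The number of the 9 still called was 7, 6 and 4 without Rnaseh2b 1, 2 and 3, and 7, 7, 6 and 7 without Rnaseh2b/p53 1, 2, 3 and 4, with an adjusted p of up to 0.17 by limma. Aen, Ccng1, Sesn2 and Ephx1 were called in each of these fits. With the midbrain list as a covariate 3 stayed called, which were Aen, Sesn2 and Ephx1, and Ccng1 had a limma adjusted p of 0.0649. Markers of neighbouring tissue differed in the same contrast, with list medians of -2.68 log2 for medulla and pons, 1.21 log2 for midbrain and -1.40 log2 for myelin genes. The midbrain list summed to 145 to 171 CPM in Rnaseh2b/p53 libraries and 52.7 to 120 CPM in Rnaseh2b libraries, and the medulla and pons list to 8.58 to 64.9 CPM in Rnaseh2b/p53 libraries and 57.0 to 169 CPM in Rnaseh2b libraries. The number of genes called against Rnaseh2b was 37 without Rnaseh2b 3 and 27 with the midbrain list as a covariate, and 701 without Rnaseh2b 1.

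**Figure D3:**
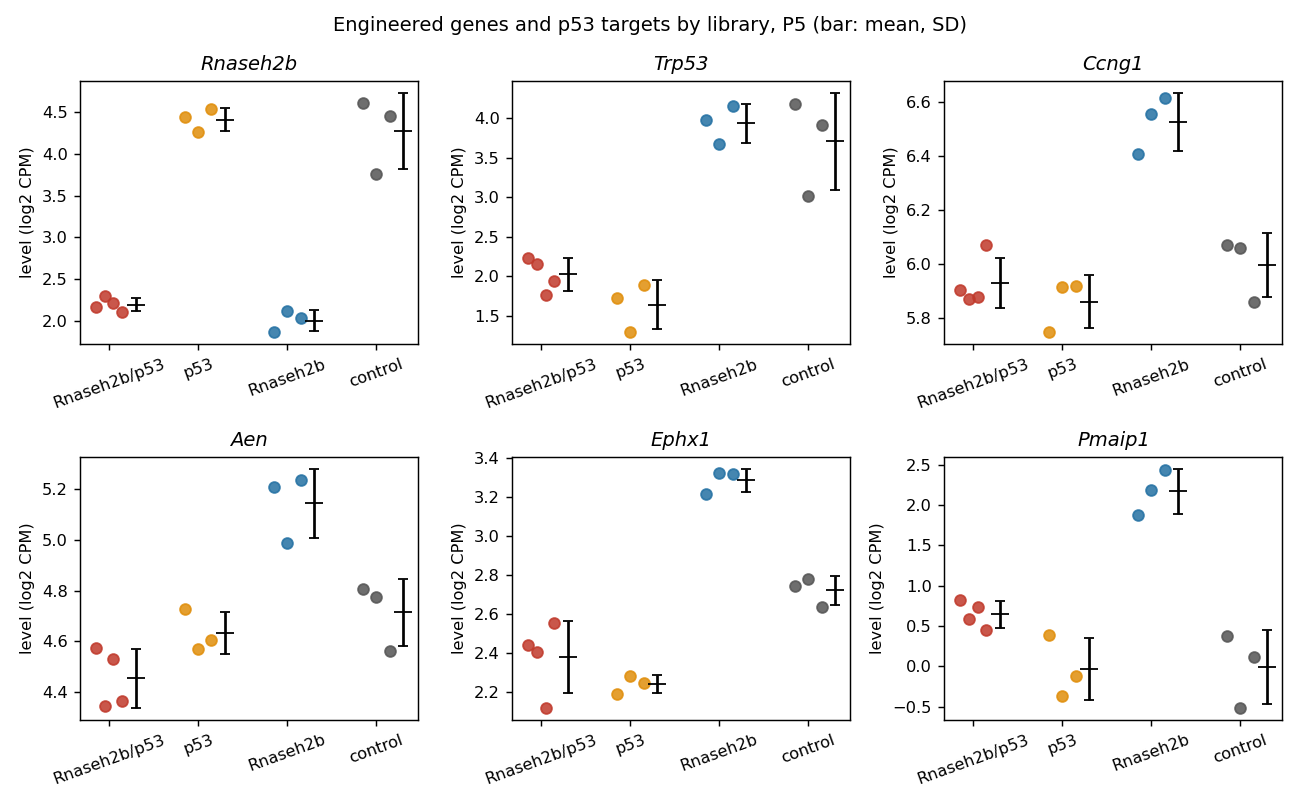
Level in log2 CPM of Rnaseh2b, Trp53 and the p53 targets Ccng1, Aen, Ephx1 and Pmaip1 in each Rnaseh2b/p53, p53, Rnaseh2b and control library, with the mean and SD of each group beside its points. Rnaseh2b and Trp53 are low in the genotypes labelled with their loss, and the 4 targets are high in Rnaseh2b libraries only.

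A pair of enzymes of deoxynucleotide metabolism were among the 15 genes that stayed called with any library left out. Dctd, the deaminase that makes dUMP from dCMP, stood at 1.90, 2.33, 2.06 and 1.89 log2 CPM in Rnaseh2b/p53 libraries, against 2.92, 2.99 and 2.73 log2 CPM in control libraries, and it fell by 0.83 ± 0.12 log2 (limma adjusted p = 0.00459). The p53 libraries lay between, at 2.55, 2.41 and 2.47 log2 CPM, and the Rnaseh2b libraries stood at 2.92, 2.86 and 2.83 log2 CPM. Dera, the aldolase that breaks down deoxyribose phosphate, stood at 2.79, 2.75, 2.64 and 2.58 log2 CPM in Rnaseh2b/p53 libraries and at 3.57, 3.87 and 3.72 log2 CPM in control libraries, with p53 and Rnaseh2b libraries at 2.61 to 2.90 log2 CPM. For Dctd the single mutants differed from each other, and for Dera the Rnaseh2b/p53, p53 and Rnaseh2b libraries lay together below the controls. The Rnaseh2b/Atm libraries overlapped the controls for Dera, at 3.68, 3.38, 3.35 and 3.84 log2 CPM (-0.16 ± 0.13 log2, limma adjusted p = 0.442).

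Rec8, a cohesin subunit best known from meiosis, had the largest fitted rise of the called genes. It stood at 3.50, 3.60, 3.15 and 3.39 log2 CPM in Rnaseh2b/p53 libraries, against -1.31, -4.05 and -1.37 log2 CPM in control libraries (5.66 ± 0.77 log2, limma adjusted p = 0.00318). Its mean over all P5 libraries was under 1 log2 CPM, so it is named here after its values were seen, and the size of the fitted change depends on the few control reads. The p53 libraries were split, with 0.82, 3.27 and 3.24 log2 CPM. Rnaseh2b libraries stood at -0.92, 0.64 and -2.45 log2 CPM. Levels that split within a genotype recurred in 3110053B16Rik, which rose by 2.79 ± 0.47 log2 (limma adjusted p = 0.0144). It stood at 2.67 to 2.82 log2 CPM in Rnaseh2b/p53 libraries, 0.27, 2.32 and -0.13 log2 CPM in Rnaseh2b libraries and -1.0 to 0.62 log2 CPM in control libraries.

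Other rises were of single genes with unlike functions. Slco1c1, a carrier of thyroid hormone in brain vessels and astrocytes, stood at 5.66, 5.58, 5.59 and 5.74 log2 CPM in Rnaseh2b/p53 libraries, against 4.89, 5.26 and 5.25 log2 CPM in control libraries (0.51 ± 0.11 log2, limma adjusted p = 0.0478). Its call was lost without any one of the 7 libraries, with an adjusted p of up to 0.127 by limma. Vps13a, a lipid transfer protein whose loss in humans causes chorea-acanthocytosis, is named after its values were seen and stood at 6.43, 6.46, 6.37 and 6.48 log2 CPM in Rnaseh2b/p53 libraries, against 6.13, 6.05 and 6.12 log2 CPM in control libraries. It rose by 0.34 ± 0.06 log2 (limma adjusted p = 0.0125), and its adjusted p was up to 0.0686 by limma without control 2 or without Rnaseh2b/p53 2. Tmod3, which caps actin filaments, rose by 0.68 ± 0.13 log2 (limma adjusted p = 0.0254) and was called only without control 1 when single libraries were left out. Ccdc37, now named Cfap100, and Ccdc40, both of motile cilia, rose by 0.57 ± 0.11 and 0.39 ± 0.08 log2 (limma adjusted p = 0.032 and 0.0442), and Ccdc40 is named after its values were seen. None of 12 tested genes of ciliated cells was called, against 0.428% of all tested genes, and their median was 0.33 log2. In 4 of them all Rnaseh2b/p53 libraries lay above all controls, against 3.89% of all tested genes. Erlec1, a lectin of the endoplasmic reticulum, rose by 0.55 ± 0.10 log2 (limma adjusted p = 0.0212), Cuedc1 by 0.49 ± 0.09 log2 (limma adjusted p = 0.0212), Ubtd2 by 0.48 ± 0.09 log2 (limma adjusted p = 0.032) and BC060267 by 0.58 ± 0.10 log2 (limma adjusted p = 0.0212). Ccdc37, Ccdc40, Erlec1, Cuedc1, Ubtd2 and BC060267 lost their calls without at least 4 of the 7 libraries taken singly, control 3 among them for each.

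Further falls came from unrelated functions. Slc5a5, the sodium and iodide carrier, stood at 0.53, 0.13, 0.14 and 0.11 log2 CPM in Rnaseh2b/p53 libraries, against 0.91, 2.11 and 1.36 log2 CPM in control libraries, and it fell by 1.23 ± 0.25 log2 (limma adjusted p = 0.0419). Dynlt1b, a light chain of the dynein motor, stood at 5.29, 5.25, 4.83 and 4.79 log2 CPM in Rnaseh2b/p53 libraries, against 6.13, 5.76 and 6.08 log2 CPM in control libraries, and it fell by 0.95 ± 0.20 log2 (limma adjusted p = 0.0442). Near-identical copies of Dynlt1b exist in the mouse genome, so its reads may be shared. Vwf, the clotting factor of vessel walls, fell by 0.33 ± 0.06 log2 (limma adjusted p = 0.0266), and Lyrm7, an assembly factor of respiratory complex III, by 1.68 ± 0.30 log2 (limma adjusted p = 0.0212), both named after their values were seen. Slc5a5, Dynlt1b, Vwf and Lyrm7 lost their calls without control 2 and without control 3, with an adjusted p of up to 0.17 by limma.

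Several called genes are copies that share sequence with others, and copies of one family had opposite values. Rpl3, a protein of the large ribosomal subunit, stood at 7.30, 7.29, 7.23 and 7.18 log2 CPM in Rnaseh2b/p53 libraries, against 8.31, 8.01 and 7.80 log2 CPM in control libraries (-0.79 ± 0.15 log2, limma adjusted p = 0.0212). Its pseudogenes Rpl3-ps1 and Rpl3-ps2 rose by 0.65 ± 0.10 and 1.40 ± 0.25 log2 (limma adjusted p = 0.00878 and 0.0191). Summed over the 3, the level was 417 to 459 CPM in Rnaseh2b/p53 and 404 to 489 CPM in control, and the groups overlapped. The share of that sum assigned to Rpl3 was 34.4% to 34.8% in Rnaseh2b/p53 libraries and 63.6% to 64.6% in Rnaseh2b libraries. It was 64.8%, 64.1% and 50.6% in control libraries 1, 2 and 3. In p53 libraries 1, 2 and 3 it was 65.0%, 50.5% and 64.1%. The share thus lay at separate levels, with control 3 and p53 2 apart from the rest of their groups. How reads were assigned among these near-identical copies was not tested, so the fall of Rpl3 and the rises of its pseudogenes are uncertain as changes of single genes. The call of Rpl3 was also lost without control 1, control 2, Rnaseh2b/p53 2, Rnaseh2b/p53 3 or Rnaseh2b/p53 4, with an adjusted p of up to 0.0814 by limma. For Rpl15 with its pseudogenes Rpl15-ps2 and Gm10020, the summed level was 188 to 197 CPM in Rnaseh2b/p53 and 217 to 229 CPM in control, and Rpl15 itself differed by -0.09 ± 0.05 log2 (limma adjusted p = 0.672). Rpl15-ps2 fell by 2.42 ± 0.31 log2 (limma adjusted p = 0.00208) and Gm10020 by 1.39 ± 0.22 log2 (limma adjusted p = 0.00878).

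Called genes lay close together in a few places. Of the 62 called genes with a chromosome in the RefSeq table, 16 had another called gene within 5 tested genes. On chromosome 14, 11 of 552 tested genes were called, or 1.99%. A run of predicted genes near one end of it, Gm3264, Gm3500, Gm3194, Gm3383, Gm10406 and Gm3558, fell together by 1.74 to 2.14 log2. Gm3383, for example, stood at 1.87, 1.81, 1.95 and 2.14 log2 CPM in Rnaseh2b/p53 libraries, against 3.34, 4.10 and 4.12 log2 CPM in control libraries. Their p53 and Rnaseh2b libraries were below the controls as well, the models are near copies of each other, and 5 of the 6 stayed called only without control 1 when single libraries were left out. On chromosome 12, Gm4983, Asap2 and Gm9282 fell while their neighbours 3110053B16Rik and 2410018L13Rik rose. Gm9282 stood at -5.63, -8.16, -6.67 and -8.16 log2 CPM in Rnaseh2b/p53 libraries, against 1.98, 1.87 and 1.58 log2 CPM in control libraries, where -8.16 is the lowest value the table holds, so no fold is given. Gm9282 was as low in 2 p53 libraries and stood at 0.75 log2 CPM in the third. Rec8 and Rnaseh2b also lie on chromosome 14, and Apobec3 and Rpl3 are neighbours on chromosome 15.

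Many called genes were shifted the same way in a single mutant. Of the 66, 37 had all 3 p53 libraries on the double mutant's side of the midpoint between the Rnaseh2b/p53 and control means, and 11 had none. All 3 Rnaseh2b libraries were on that side for 20 genes and none for 26. Both single mutants were wholly on that side for 16 genes and wholly on the control side for 5, which were Rpl3-ps1, Slco1c1, Vps13a, Rcl1 and Rpl3. These counts compare groups that share the 3 controls, and the midpoint rests on the values that made the calls, so they are a description. Gm5514 had the double mutant well apart from most other libraries, at 2.89, 2.96, 2.83 and 2.91 log2 CPM in Rnaseh2b/p53, 2.27, 0.11 and 0.00 log2 CPM in p53, 0.59, 0.67 and 0.22 log2 CPM in Rnaseh2b and 0.01, 0.78 and 0.03 log2 CPM in control. It rose by 2.62 ± 0.38 log2 against control (limma adjusted p = 0.00459).

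Whether both losses together gave other than the sum of each was tested as a difference of effects, Rnaseh2b/p53 minus p53 set against Rnaseh2b minus control. No gene was higher and 1 was lower, or 0% and 0.00648% of tested genes, with 1011 at an unadjusted p below 0.05. The gene was Gm15920, with a difference of -1.08 ± 0.13 log2 (limma adjusted p = 0.00359). It stood at 2.43, 2.42, 2.47 and 2.48 log2 CPM in Rnaseh2b/p53 libraries, 3.27 log2 CPM in each p53 library, 2.72, 2.78 and 2.77 log2 CPM in Rnaseh2b libraries and 2.36, 2.53 and 2.62 log2 CPM in control libraries. The double mutant and control thus overlapped for this gene, and both single mutants lay above them. No p53 target was called, and the medians of the difference were -0.40 log2 for targets of apoptosis, -0.04 log2 for arrest and feedback and -0.06 log2 for metabolism and repair, beside -0.01 log2 over all tested genes. Ccng1 had a difference of -0.46 log2 (limma adjusted p = 0.311) and Pmaip1 of -1.50 log2 (limma adjusted p = 0.627). For Rnaseh2b the difference was 0.05 log2 and for Trp53 0.16 log2, neither called. The number called was 13 with only these 4 groups in the fit and up to 16 with single libraries left out, without control 1.

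Against p53 libraries, 19 genes were higher and 10 lower in Rnaseh2b/p53, which are 0.188% of tested genes in either direction, 0.123% higher and 0.0648% lower. The controls are not a group of this contrast, though they enter the shared estimate of spread. Oasl2 was 1.44 ± 0.24 log2 higher (limma adjusted p = 0.0324), with Rnaseh2b/p53 libraries at 0.38 to 1.0 log2 CPM and p53 libraries at -0.88 to -0.38 log2 CPM. The median of the 38 interferon-stimulated genes was 0.66 log2, and it was 0.07 log2 against Rnaseh2b, where none was called. Apobec3 stood at 0.83, 0.76 and 1.02 log2 CPM in p53 libraries, below every Rnaseh2b/p53 library. Skeletal muscle genes made up 5 of the 19 rises, which were Myh3, Myog, Tnnc2, Tnni1 and Mylpf, and the muscle list had a median of 0.71 log2. Myh3 was 2.57 ± 0.46 log2 higher (limma adjusted p = 0.0389), with 1.61 to 3.46 log2 CPM in Rnaseh2b/p53 libraries and -0.35 to 0.22 log2 CPM in p53 libraries. The summed level of the muscle list was 38.4 to 70.9 CPM in Rnaseh2b/p53 libraries and 30.5 to 32.7 CPM in p53 libraries, and its part in the other differences was not tested. In Rnaseh2b libraries the same list summed to 79.3 to 107 CPM. The count of called genes was 61 with no other groups in the fit and 6 to 16 with single libraries left out.

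Lists for the cell types of the tissue showed no called member other than Slco1c1 and the genes given above. Every list median is set against -0.00124 log2 over all tested genes. Counts of calls, here and in the lists below, are set against 0.428% of all tested genes. All 21 mitotic genes and all 22 DNA replication genes had positive log2 fold changes, against 49.7% of all tested genes. Their medians were 0.42 and 0.32 log2, with none called. The summed level of the mitotic list was 1257 to 1652 CPM in Rnaseh2b/p53 libraries, against 1766, 569 and 1308 CPM in control libraries 1, 2 and 3, so the double mutant lay above control 2 and overlapped the others. Choroid plexus genes had a median of 0.73 log2, with sums of 973 to 1481 CPM in Rnaseh2b/p53 libraries, against 1401, 114 and 1008 CPM in control libraries. Granule progenitor genes had a median of 0.28 log2 and sums of 1360 to 1774 CPM in Rnaseh2b/p53 libraries, against 1865, 743 and 1744 CPM in control libraries. Control 2 was the low library in each of these, and the groups overlapped. The granule neuron, Purkinje cell and inhibitory neuron lists had medians of 0.14, 0.08 and -0.03 log2 with none of 20, 19 and 14 tested genes called. In bulk tissue fewer cells of a type and less RNA per cell cannot be told apart.

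Glial and vessel lists had negative medians, again with no called member except Slco1c1 of the astrocyte list. Myelin genes had a median of -0.68 log2 over 16 tested genes. The sums of all 17 listed were 737, 586, 665 and 887 CPM in Rnaseh2b/p53 libraries, against 579, 1335 and 1359 CPM in control libraries. Control 1 thus lay below every double mutant library. Mbp, of the myelin sheath, stood at 7.25, 6.67, 7.10 and 7.64 log2 CPM in Rnaseh2b/p53 libraries, against 6.67, 8.56 and 8.54 log2 CPM in control libraries. Genes of medulla and pons, the brainstem beside the cerebellum, had sums of 8.58 to 64.9 CPM in Rnaseh2b/p53 libraries, against 5.93 to 73.3 CPM in control libraries, and control 1 held the least, with a list median of 0.04 log2. The astrocyte and Bergmann glia list had a median of -0.11 log2 over 16 genes. Homeostatic microglia genes had a median of -0.08 log2 over 20 genes and phagocytic microglia genes -0.18 log2 over 15. Of the phagocytic list Itgax, an integrin, stood at -0.49, -0.83, -0.82 and -0.84 log2 CPM in Rnaseh2b/p53 libraries, against -0.32, 0.31 and 1.30 log2 CPM in control libraries (-1.17 ± 0.27 log2, limma adjusted p = 0.0702). Spp1, a secreted protein of activated microglia, differed by -1.06 ± 0.35 log2 (limma adjusted p = 0.305), and Clec7a, a phagocytic receptor, by 1.34 ± 0.39 log2 (limma adjusted p = 0.191), with no overlap for either. Endothelial, meningeal and blood lists had medians of -0.14, -0.21 and -0.31 log2. Complement, reactive astrocyte, oligodendrocyte progenitor and unipolar brush lists had medians of -0.19, -0.05, -0.20 and -0.04 log2.

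Skeletal muscle genes, which mark tissue that should not be in a cerebellum, had the highest list median, at 0.77 log2 over 18 tested genes with none called. Of these, 7 had all Rnaseh2b/p53 libraries above all controls, against 3.89% of all tested genes. The embryonic myosin gene Myh3 stood at 3.46, 2.67, 2.68 and 1.61 log2 CPM in Rnaseh2b/p53 libraries, against 0.56, -0.20 and 1.02 log2 CPM in control libraries (2.14 ± 0.46 log2, limma adjusted p = 0.0529). The summed level of the list was 70.9, 58.6, 58.4 and 38.4 CPM in Rnaseh2b/p53 libraries, against 34.8 to 37.8 CPM in control libraries, and its part in other differences was not tested. The rise was not particular to the double mutant. Rnaseh2b libraries had 7 muscle genes called higher than control by limma, with a list median of 1.48 log2. In that contrast 46 of all 15421 tested genes were called higher. Sums were 79.3 to 107 CPM in Rnaseh2b and 57.8 to 118 CPM in Rnaseh2b/Atm libraries. They were 30.5 to 32.7 CPM in p53 and 26.7 to 39.8 CPM in Atm libraries. The source of the muscle reads was not tested. Lists of DNA damage kinases, integrated stress, immediate early, mitochondrial, NF-kB and midbrain genes had medians of 0.13, 0.04, 0.12, 0.08, 0.01 and 0.18 log2 with no called member.

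**Figure D4:**
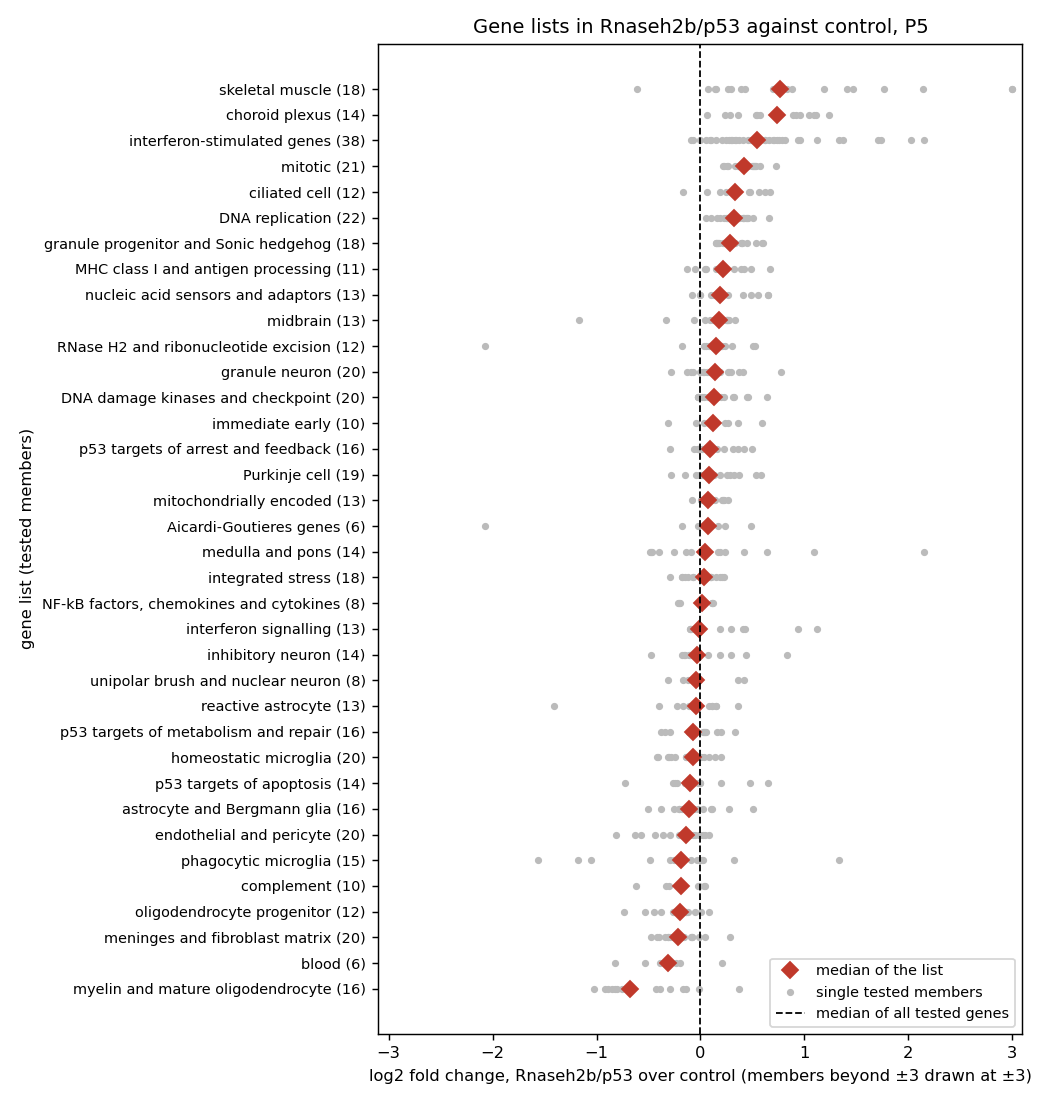
Log2 fold change of Rnaseh2b/p53 over control for every tested member of 36 gene lists (grey points, members beyond 3 log2 drawn at the edge) with the list median (red diamond), ordered by the median. Skeletal muscle, choroid plexus and interferon-stimulated genes have the highest medians (0.77, 0.73 and 0.54 log2) and myelin genes the lowest (-0.68 log2).

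The number of calls depended on the fit. None of the 66 genes changed direction in any of the 24 alternative fits that tested it. This was largely set in advance. The groups overlapped for none of the 66, so leaving out libraries could not reverse a direction, and the other fits reused the same values. Of the 66, 57 were called in at least 12 of the fits, and Rnaseh2b was the only one called in all 24. A filter of 1 CPM in at least 7 libraries tested 62 of the 66, without Gm10478, Gm4983, Npm3-ps1 and Pkd1l1. The count was 29 when the fit held no libraries but these 7, of which 23 were among the 66, with a split of 10 higher and 19 lower. With log2 of FPKM plus 1 it was 80, with 48 higher and 32 lower. It was 1, which was Rnaseh2b, without both control 2 and Rnaseh2b/p53 3, where 824 genes had an unadjusted p below 0.05. Dera, Rec8, Trim34a, Zfp125, Gm5514, Rpl15-ps2 and Gm9282 were called in 23 of the 24.

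**Figure D5:**
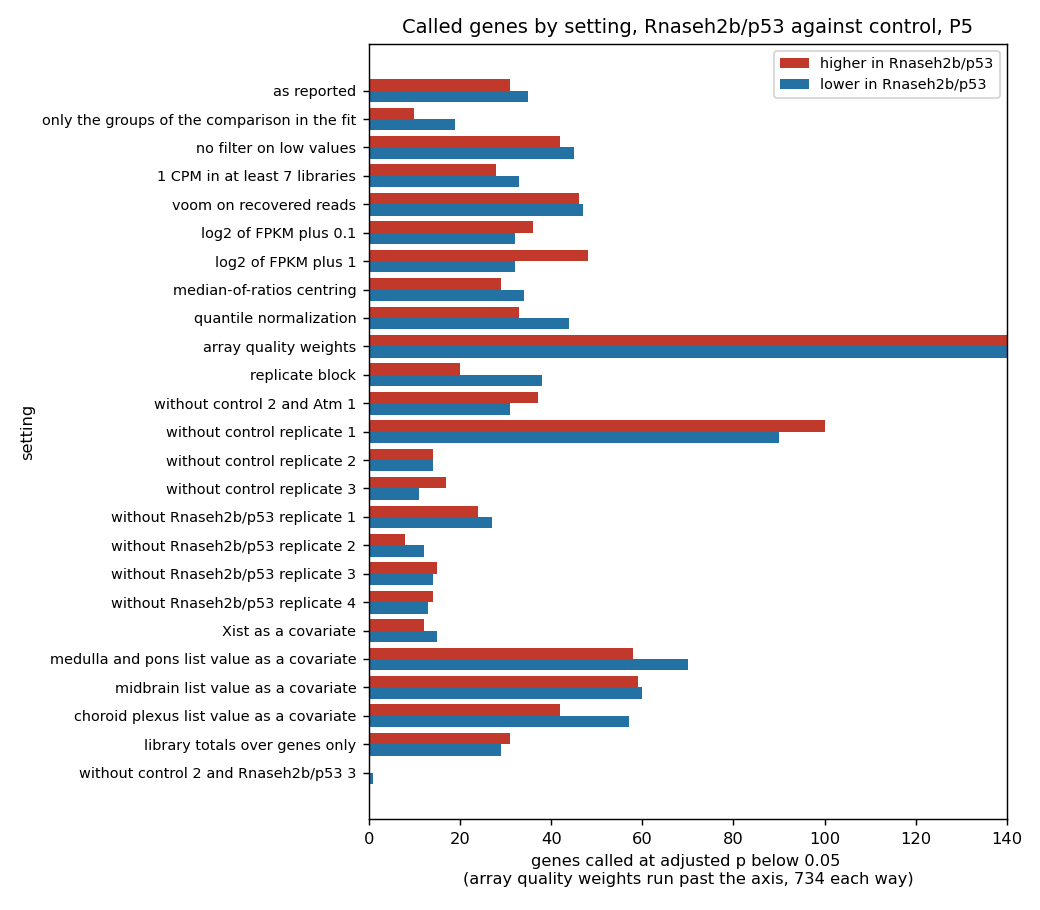
Number of genes called higher (red) and lower (blue) in Rnaseh2b/p53 against control under the fit as reported and 24 alternatives, with the axis ending at 140. The fit as reported gives 31 and 35, single libraries left out give totals from 20 to 190, and array quality weights run past the axis with 734 each way.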

How the data were processed

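RNA from whole cerebellum was sequenced as stranded total RNA, per the labels' protocols. The submitters' processing notes name Trim Galore, STAR, BWA, HTSeq, limma and the mm9 build, without roles or versions. The authors deposited log2 CPM values per gene and library, scaled to library totals that include reads outside genes, which held 19.7% to 31.8% of the reads. They also deposited FPKM values, used here for levels per length and as an alternative. Whole reads were recovered from the log2 values for all genes, which gave the depths. The tolerance of 0.1 reads was checked only for entries with low read numbers, and larger ones were rounded without that check.

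Of 19235 features, 3 HTSeq summary entries were left out, and 15421 genes with at least 1 CPM in at least 3 of the 20 P5 libraries were tested. The 23 names turned into dates entered that filter like the rest and were left out only when genes were named. The deposited log2 CPM values were fitted by group with limma 3.58.1 (trend, R 4.3.3), with Benjamini-Hochberg adjustment over all tested genes and a threshold of 0.05. All 20 libraries entered the fit and share one estimate of spread. Code was tested on simulated data, and figures were drawn with matplotlib 3.10.9 on Python 3.11.15. The members and the 37 gene lists were chosen with earlier results of these data known.

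Genes were named by a rule: Rnaseh2b and Trp53; the 15 largest rises and 15 largest falls among called genes that averaged 1 log2 CPM or more and did not overlap the controls; per list up to 6 called members and the 4 most expressed; and genes called for the difference of effects. Others were chosen after their values were seen, namely Rec8, Zfp125, Trim34a, Trim30d, Trim12a, Vps13a, Ccdc40, Lyrm7, Vwf, Rcl1, Rpl3, Rpl15, Asap2, Gm4983, Gm6768, Gm9282, Gm10478, Npm3-ps1, Xaf1, Ifit1, Irgm1, Irf9, Cgas, Ddx58, Ifih1, H2-K1, Cdkn1a, Mdm2, Pmaip1, Ephx1, Rrm2b, Sesn2, Bax, Zmat3, Phlda3, Dcxr, Itgax, Spp1, Clec7a, Myog, Tnnc2, Tnni1, Mylpf, Pkd1l1, Scoc, Xist, Ddx3y and Uty. Promoter windows came from RefSeq on GRCm38.p6. Alternatives changed the libraries in the fit, the filter, the unit, the scaling, the weights, covariates and single libraries. The values of 1 named gene are not reported here.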

Additional observations from a re-analysis of the deposited data

Results flagged for a closer look

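Of 151 quantities examined in the 4 Rnaseh2b/p53 libraries, 13 (8.61%) had a single library far from the other 3, where chance gives about 1 in 20. Rnaseh2b/p53 3 held 711.0 M reads in genes, against 48.16 to 91.41 M in the others. Rnaseh2b/p53 2 stood apart for genes of the Y chromosome, with Ddx3y at -4.316 log2 CPM (6.247 to 6.558 in the others) and Uty at -4.852 log2 CPM (5.167 to 5.342 in the others). The same library stood apart for 2 genes of MHC class I, with H2-K1 at 4.172 log2 CPM (3.027 to 3.086 in the others) and B2m at 5.32 log2 CPM (4.721 to 4.744 in the others).

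Rnaseh2b/p53 1 stood apart for Trim12a at 1.029 log2 CPM (1.263 to 1.3 in the others), for Slc5a5 at 0.5339 log2 CPM (0.1134 to 0.1422 in the others) and for Itgax at -0.4878 log2 CPM (-0.8391 to -0.8208 in the others). Rnaseh2b/p53 3 was apart for Scoc, a gene that fell, at 5.812 log2 CPM (6.045 to 6.083 in the others). Rnaseh2b/p53 4 was apart for Erlec1 at 4.862 log2 CPM (4.608 to 4.61 in the others) and for Ccng1 at 6.069 log2 CPM (5.873 to 5.905 in the others). With members centred on their control means, it also stood apart in the mean of the astrocyte and Bergmann glia list, at 0.02469 (-0.1165 to -0.09428 in the others). The same held for the meninges list, at -0.114 (-0.2293 to -0.2128 in the others). The effect of Rnaseh2b loss differed between the p53 mutant and p53 wild-type backgrounds for Gm15920, by -1.075 log2 (limma adjusted p = 0.00359).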

How the results depend on the processing

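None of the 66 genes changed direction in any of the 24 alternatives that tested it (62 of the 66 in the filter over 7 libraries). With non-overlapping groups for all 66, this was largely set in advance and is no further support for the directions. The cause of the changes below was not tested, beyond the smaller number of libraries in some fits. For Rnaseh2b/p53 against control, the 66 calls became 29 with no other groups in the fit, 1468 with array quality weights, 27 with Xist as a covariate, 128 and 119 with the medulla and pons or midbrain lists as covariates, and 20 to 190 without single libraries. For the difference of effects, the 1 call became 13 with no other groups in the fit, 2 with voom, FPKM plus 0.1, Xist, the medulla list or library totals over genes, 3 with the choroid plexus list, 4 with FPKM plus 1, 7 without control 2 and Atm 1, 282 with weights and 1 to 16 without single libraries. Against Rnaseh2b, the 466 calls became 1464 with weights, 1140 without control 2 and Atm 1, 283 with the medulla list, 27 with the midbrain list, 1315 with the choroid plexus list and 37 to 701 without single libraries. Against p53, the 29 calls became 61 with no other groups in the fit, 317 with weights, 46 without control 2 and Atm 1, 14 with Xist, 16 with library totals over genes and 6 to 16 without single libraries. Without control 2 and Rnaseh2b/p53 3, the calls were 1 against control, 244 against Rnaseh2b and 9 against p53. This alternative and library totals over genes were chosen after seeing the data. Deviations of same-numbered Rnaseh2b/p53 and control replicates had correlations of 0.206, -0.199 and -0.0341. Pairing with the p53 or Rnaseh2b libraries was not examined, and 3 replicates are too few to decide whether libraries were paired. A replicate block gave 58 calls against control (20 higher, 38 lower, 45 of the 66), 91 against Rnaseh2b, 11 against p53 and 1 for the difference of effects. With 3 or 4 libraries a group, uneven sex and controls that differ from each other, calls near the threshold are uncertain, and the effect of the uneven depth on the calls was not tested beyond leaving out Rnaseh2b/p53 3.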
